A study of Mus musculus with 4 samples.

Results

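The contractile genes of smooth muscle and of the mammary myoepithelium were followed through the genotype comparison. They comprise 10 genes: the actins Acta2 and Actg2, the smooth muscle myosin heavy chain Myh11, the myosin light chain kinase Mylk, the actin-binding proteins Cnn1, Tagln and Smtn, the intermediate filament protein Des, and the myoepithelial oxytocin receptor Oxtr and basal transcription factor Trp63. Members were all probe sets that the platform annotation assigns to exactly 1 of these symbols, which gave 17 of 45037 probe sets, for 8 of the 10 genes (17097 genes were measured in all). Tagln was represented by a probe set that is also assigned to Pcsk7 and was therefore no member, and the expression of Smtn was not analysed here.

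Whole inguinal mammary gland of mice at postnatal day 10 was profiled on Affymetrix arrays, with 2 arrays from mice lacking Mt2-mmp in all tissues, labelled Mt2-mmp(-/-), and 2 from wild-type littermates, labelled Mt2-mmp(+/+). Mt2-mmp, gene symbol Mmp15, encodes a membrane-anchored matrix metalloproteinase. All mice were congenic on C57Bl/6J, and no treatment is given. Arrays of a genotype are labelled biological replicates, but the number of mice behind each is not given, so p-values measure only the spread between these arrays. The deletion was not limited to the gland or to 1 of its cell types, and all values come from the whole tissue. Values are RMA log2 expression values as deposited. Fold changes are knockout over wild type, with n = 2 arrays per genotype throughout.

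Smooth muscle and myoepithelial cells contract when calcium and calmodulin activate myosin light chain kinase, whose phosphorylation of the myosin light chain lets myosin pull on actin. In the mammary gland the myoepithelium is the basal layer of ducts and later of alveoli, and it squeezes milk out when oxytocin reaches its receptor. The transcription factor p63, encoded by Trp63, maintains the basal epithelial lineage of mammary gland and skin, and serum response factor with myocardin-family cofactors drives many contractile genes through a DNA element called the CArG box. Vascular smooth muscle, pericytes and the small muscles of hair follicles express most of the contractile genes as well. In whole tissue, fewer cells of a type and less RNA per cell cannot be told apart.

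The labelled tissue was represented by its defining markers. Krt14 of basal epithelium lay at 7.87 to 8.22, Krt8 of luminal epithelium at 9.01 to 9.47 and Adipoq of adipocytes at 13.14 to 13.26, while the 90th percentile of 23 nonspecific control probe sets lay at 4.38 to 4.44. Of the 17 member probe sets 6 had means below that percentile. Correlations between arrays over all probe sets ran from 0.995 to 0.997. Knockout 1 and wild type 2 stood apart from the other arrays in hair follicle genes. Krt25, a keratin of the inner root sheath named after its values were seen, reached 10.44 on the knockout 1 array and 10.47 on the wild type 2 array, while the knockout 2 and wild type 1 arrays gave 3.70 and 3.99 on the log2 scale. Trp63 and basal keratins are also made by skin epithelium, so the values of these arrays are given beside the results on Trp63. The expression of the targeted gene was not analysed here, which leaves the genotype labels without a check of their own.

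The comparison of genotypes called none of the members. Over all 45037 probe sets limma called 2 at an adjusted p under 0.05, or 0.00444%, and neither was a member: they belong to Gadd45gip1 and Prdx2, named here after their values were seen. Of the 17 member probe sets 0 passed, and 1, of Oxtr, had an unadjusted p under 0.05 by limma, a level that 6.65% of all probe sets reached. The adjusted p-values of the members ran from 0.721 to 0.995 by limma. On the lower side of 0 lay 14 of 17 members, where 50.5% of all probe sets lay, and the median log2 fold change was -0.083 against -0.0012 over all probe sets. That median was -0.027 without wild type 1, -0.15 without wild type 2 and -0.15 with the brightest probe set of each gene. Both knockout arrays were below both wild-type arrays in 6 members and above them in 1, where 18.6% and 17.8% of all probe sets showed these arrangements. Of the 6, 3 were probe sets of Trp63, with mean log2 values of 6.05, 4.01 and 3.69. The brightest of these was separated by only 0.0026, and the dimmer means lay below the percentile of the nonspecific controls given above. The 11 contractile probe sets gave 2 of the 6, of Actg2 (separated by 0.018) and Cnn1, and Oxtr gave 1.

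**Figure D1:**
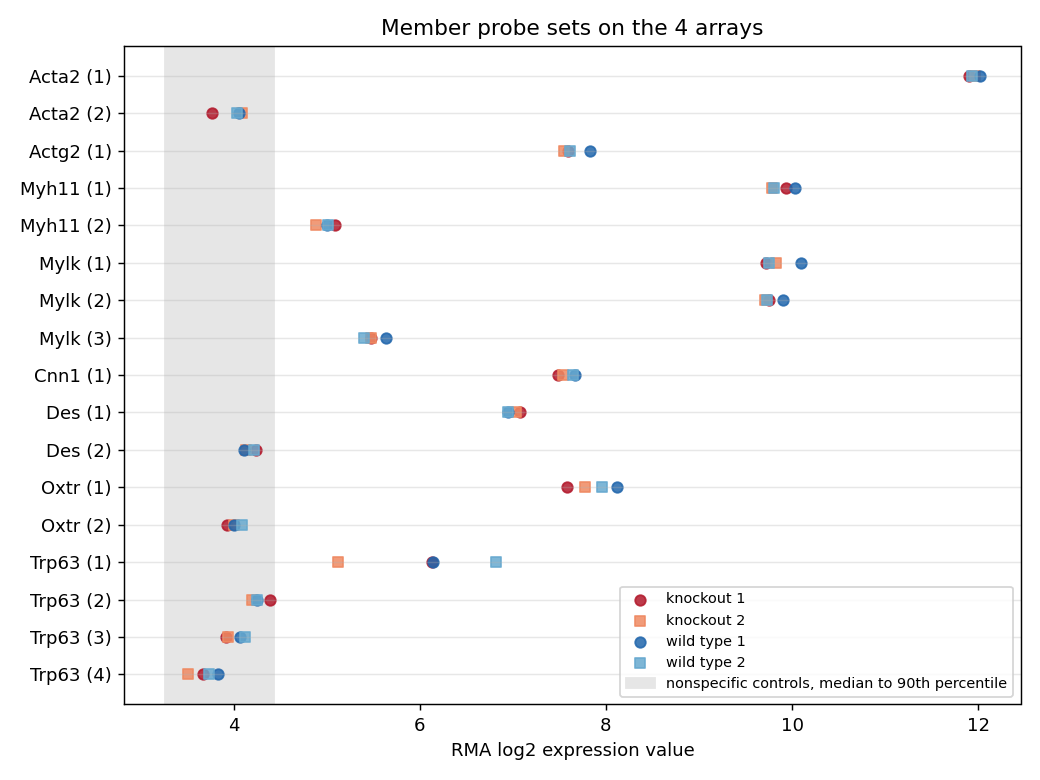
RMA log2 expression values (x axis) of the 17 member probe sets (rows, numbered within a gene from the brightest) on the 4 arrays; points are single arrays and the grey band runs from the lowest median to the highest 90th percentile of the nonspecific controls. The arrays lie close together for the contractile genes, Oxtr (1) has both knockouts below both wild types, and Trp63 (1) spreads from 5.12 to 6.82, with knockout 1 hidden under wild type 1.

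Acta2 encodes smooth muscle alpha-actin, the actin of contractile filaments. Its bright probe set (1416454_PM_s_at) had log2 values of 11.90 and 11.96 in knockouts 1 and 2 and 12.02 and 11.93 in wild types 1 and 2. The genotypes overlapped, and the highest and lowest arrays were 0.12 apart. Knockout over wild type gave a log2 fold change of -0.042 (SE 0.073, 95% interval -0.22 to 0.14, limma adjusted p = 0.961). The suffix of this probe set marks probes that match several transcripts, so signal of related actins cannot be separated from it. The other Acta2 probe set, at 3.77 to 4.09, lay below the 90th percentile of the nonspecific controls.

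The sequences upstream of the Acta2, Cnn1 and Oxtr starts are shown because these genes run from nearly level (Acta2) to the lowest p (Oxtr). They do not cover the members' whole range, which reached from -0.85 for Trp63 to 0.11 for Des in log2 fold change. The CArG box is marked because it is the element through which contractile genes are best known to be controlled. Each stretch holds the 250 bases before the start in the RefSeq annotation of GRCm38.p6, 5′ to 3′ on the gene's strand: chr19:34255374-34255623 on the minus strand for Acta2, chr9:22099003-22099252 on the plus strand for Cnn1 and chr6:112489826-112490075 on the minus strand for Oxtr. Capitals mark matches to the CArG box with 1 substitution of C or G allowed among its 6 central A or T positions, a pattern that reads alike on both strands.
Acta2: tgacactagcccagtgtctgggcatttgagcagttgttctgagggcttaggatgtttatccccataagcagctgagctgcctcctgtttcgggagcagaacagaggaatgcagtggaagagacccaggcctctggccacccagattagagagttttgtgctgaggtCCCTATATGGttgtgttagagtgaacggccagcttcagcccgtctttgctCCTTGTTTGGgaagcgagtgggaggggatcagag
Cnn1: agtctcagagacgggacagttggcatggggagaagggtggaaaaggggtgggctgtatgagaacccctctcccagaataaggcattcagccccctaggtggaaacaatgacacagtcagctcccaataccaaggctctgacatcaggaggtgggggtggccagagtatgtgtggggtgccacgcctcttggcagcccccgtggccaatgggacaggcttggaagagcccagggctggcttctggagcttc
Oxtr: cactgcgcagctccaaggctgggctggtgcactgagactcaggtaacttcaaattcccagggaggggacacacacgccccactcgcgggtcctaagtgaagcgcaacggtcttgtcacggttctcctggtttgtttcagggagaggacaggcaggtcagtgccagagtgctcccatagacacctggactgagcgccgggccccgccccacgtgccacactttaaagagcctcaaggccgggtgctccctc
Acta2 held 2 matches, CCCTATATGG beginning 84 bases and CCTTGTTTGG beginning 34 bases before the start, each with the substitution. Of 32851 promoter windows of this length 8.59% held at least 1 match and 0.670% held 2 or more. Of the 6 member genes with a promoter sequence (Acta2, Cnn1, Des, Mylk, Oxtr and Smtn), Acta2 was the 1 with a match; elsewhere these letters are not in this window.

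Actg2 encodes the gamma actin of smooth muscle. The Actg2 probe set (1422340_PM_a_at) had log2 values of 7.60 and 7.55 in knockouts 1 and 2 and 7.83 and 7.61 in wild types 1 and 2. Wild type 1 was the high array, and the genotypes were separated by only 0.018, between knockout 1 and wild type 2. The log2 fold change was -0.15 (SE 0.094, 95% interval -0.38 to 0.087, limma adjusted p = 0.819), smaller than the difference of 0.22 between the wild-type arrays. Without wild type 1 it was -0.039.

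Myh11 is the myosin heavy chain that defines differentiated smooth muscle and is also present in myoepithelium. Its bright probe set (1448962_PM_at) had log2 values of 9.93 and 9.78 in knockouts 1 and 2 and 10.03 and 9.81 in wild types 1 and 2. Here replicate 1 was the higher array in both genotypes, and the groups overlapped. The difference was -0.061 on the log2 scale (SE 0.105, limma adjusted p = 0.959), and it was 0.052 without wild type 1 and 0.014 without knockout 2. A dimmer Myh11 probe set had log2 values of 4.89 to 5.09 and a log2 fold change of -0.020 (SE 0.090).

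Mylk, the kinase that starts contraction, was measured by 3 probe sets, and wild type 1 was the highest array on each. The brightest (1425505_PM_at) had log2 values of 9.72 and 9.83 in knockouts 1 and 2 and 10.10 and 9.75 in wild types 1 and 2. Wild type 2 lay between the knockouts. Knockouts differed by -0.15 on the log2 scale (SE 0.127, 95% interval -0.47 to 0.17, limma adjusted p = 0.864), while the wild-type arrays differed from each other by 0.34. The other probe sets had log2 fold changes of -0.083 (SE 0.084) and -0.038 (SE 0.098). Without wild type 1 the 3 values were 0.019, 0.0017 and 0.081.

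Cnn1 encodes calponin, which binds actin and restrains the myosin motor. Its probe set (1417917_PM_at) had log2 values of 7.48 and 7.54 in knockouts 1 and 2 and 7.66 and 7.64 in wild types 1 and 2. Both knockouts lay below both wild types, with a gap of 0.10 between the nearest arrays. The log2 fold change was -0.14 (SE 0.068, 95% interval -0.31 to 0.028), and it did not pass (limma adjusted p = 0.777). It stayed between -0.17 and -0.12 with 1 array left out.

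Des encodes desmin, the intermediate filament of muscle cells, and was the contractile gene on the other side of 0. Its bright probe set (1426731_PM_at) had log2 values of 7.08 and 7.04 in knockouts 1 and 2 and 6.95 and 6.95 in wild types 1 and 2. Both knockouts were above both wild types, with a gap of 0.085. The log2 fold change was 0.11 (SE 0.066, 95% interval -0.061 to 0.27, limma adjusted p = 0.817), and a second probe set near the controls had 0.026 (SE 0.080). Skeletal muscle also makes desmin. Of 11 listed skeletal muscle markers 10 were measured: their summed level, added as linear values, was 215 and 460 in knockouts 1 and 2 and 261 and 231 in wild types 1 and 2, and 5 of the 10 (Myh4, Myh1, Myh2, Tnnt3 and Ttn) had means below the 90th percentile of the nonspecific controls. Knockout 2 was the high array in 8 of the 10, Acta1 for example at 7.39 against 4.74 to 5.67 and Myh4 at 5.28 against 3.38 to 3.70, whereas Des was highest in knockout 1. Of these markers 9 lay above and 1 below 0 (median 0.15), and 0 passed by limma (0 at an unadjusted p under 0.05). This side rested on knockout 2: without it 7 of the 10 lay below 0 (median -0.14), while without knockout 1 the median was 0.42. It was 0.27 for the 3 of them among the brighter probe sets. The part of skeletal muscle in the Des values was not tested.

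The probe set shared by Tagln, an actin-bundling protein of smooth muscle, and Pcsk7 lay outside the rule and was named after its values were seen. It had log2 values of 10.67 and 10.62 in knockouts 1 and 2 and 10.68 and 10.69 in wild types 1 and 2, and a log2 fold change of -0.040 (SE 0.067).

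**Figure D2:**
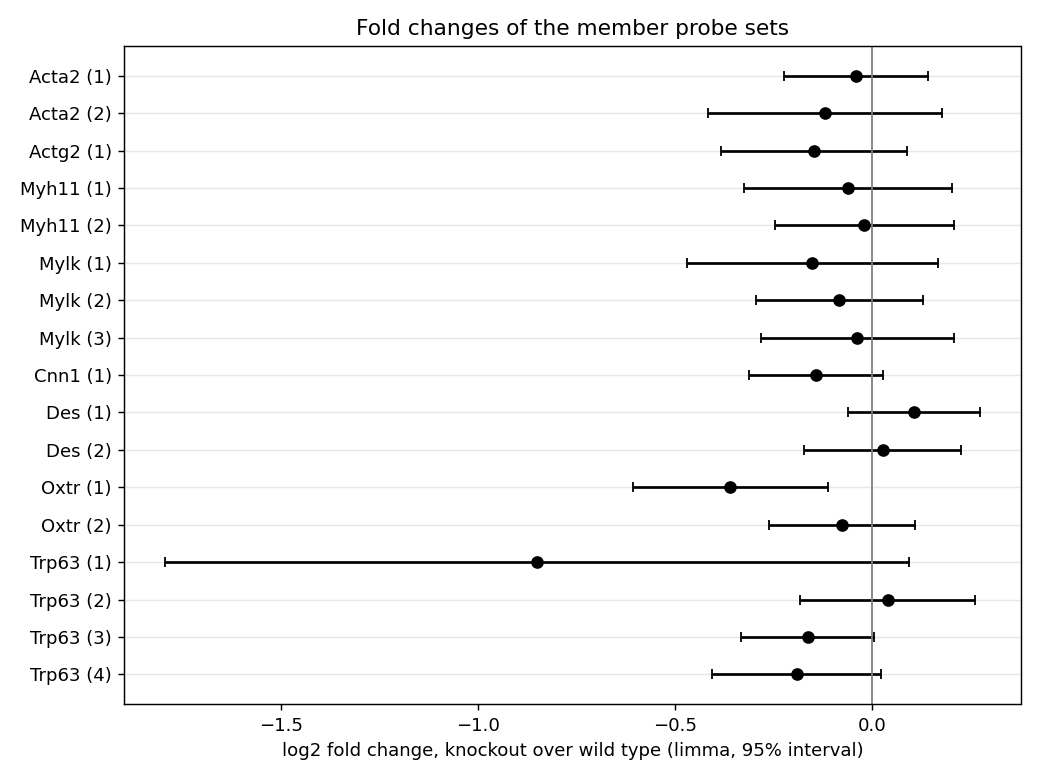
Log2 fold change of each member probe set, knockout over wild type (x axis, limma, bars are 95% intervals, n = 2 arrays per genotype; rows as in the plot of array values). The interval of Oxtr (1), -0.61 to -0.11, lies below 0 before adjustment over all probe sets, the widest interval is that of Trp63 (1), and the contractile genes lie between -0.15 and 0.11.

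Oxtr, the receptor through which oxytocin makes myoepithelial cells contract, had the smallest p of the members. Its bright probe set (1440888_PM_at) had log2 values of 7.59 and 7.77 in knockouts 1 and 2 and 8.12 and 7.96 in wild types 1 and 2. Both knockouts were below both wild types, with a gap of 0.19 between knockout 2 and wild type 2. The means were 7.68 ± 0.134 and 8.04 ± 0.109 (SD, n = 2 arrays each), a level 1.28-fold lower in knockouts (log2 fold change -0.36, SE 0.099, 95% interval -0.61 to -0.11). It did not pass over all probe sets (limma unadjusted p = 0.0128, adjusted p = 0.721), and 785 probe sets had a smaller p. With 1 array left out the value ran from -0.45 to -0.27. The other Oxtr probe set lay below the 90th percentile of the nonspecific controls, at 3.93 to 4.09, with a log2 fold change of -0.076 (SE 0.074).

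Trp63 varied most among the members. Its brightest probe set (1418158_PM_at) had log2 values of 6.14 and 5.12 in knockouts 1 and 2 and 6.14 and 6.82 in wild types 1 and 2. Knockout 2 was low and wild type 2 high, while knockout 1 and wild type 1 differed by 0.003. The log2 fold change was -0.85 (SE 0.376, 95% interval -1.79 to 0.094, limma adjusted p = 0.770), and the knockout arrays differed from each other by 1.01. Without knockout 2 the value was -0.34 and without knockout 1 it was -1.36. The other 3 Trp63 probe sets had means below the 90th percentile of the nonspecific controls, with log2 fold changes of -0.19 (SE 0.086), -0.16 (SE 0.067) and 0.039 (SE 0.088).

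Hair follicle genes moved between arrays as well. Of 12 listed epidermis and hair follicle genes 11 were measured, and their summed linear level was 5466 and 596 in knockouts 1 and 2 and 523 and 4721 in wild types 1 and 2. The epidermal genes Krt1 and Lor lay below the 90th percentile of the nonspecific controls on all arrays, and Krt10, of differentiating epidermis, at 7.16 to 7.22. Krtdap, another gene of differentiating epidermis, had a log2 fold change of 0.32 (SE 0.110). By genotype 7 of the 11 lay above 0, 2 below and 2 at 0 to within 1e-06 (median 0.059), and 0 passed by limma (1 at an unadjusted p under 0.05). The median followed the array left out: it was -1.61 without knockout 1, 1.70 without knockout 2, -1.37 without wild type 1 and 1.79 without wild type 2, and 0.0090 with the brighter probe sets only. Between the arrays rich in hair follicle genes, Trp63 was 0.68 lower in knockout 1 than in wild type 2 on the log2 scale. Between the arrays poor in them, it was 1.02 lower in knockout 2 than in wild type 1. Oxtr was 0.38 and 0.34 lower in the same pairs, and Cnn1 0.16 and 0.13. Des was higher in both (0.13 and 0.087), and Myh11 differed in sign (0.13 and -0.25). For Trp63, Oxtr, Cnn1 and Des both signs follow from groups that do not overlap. In all, 8 of the 17 member probe sets were lower in both pairs, as were 25.8% of all probe sets. These 8 include the 6 members with both knockouts below both wild types, for which this was fixed. Of all probe sets 18.6% were fixed in this way. These pairs hold 1 array of each genotype and were formed after the data were seen.

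**Figure D3:**
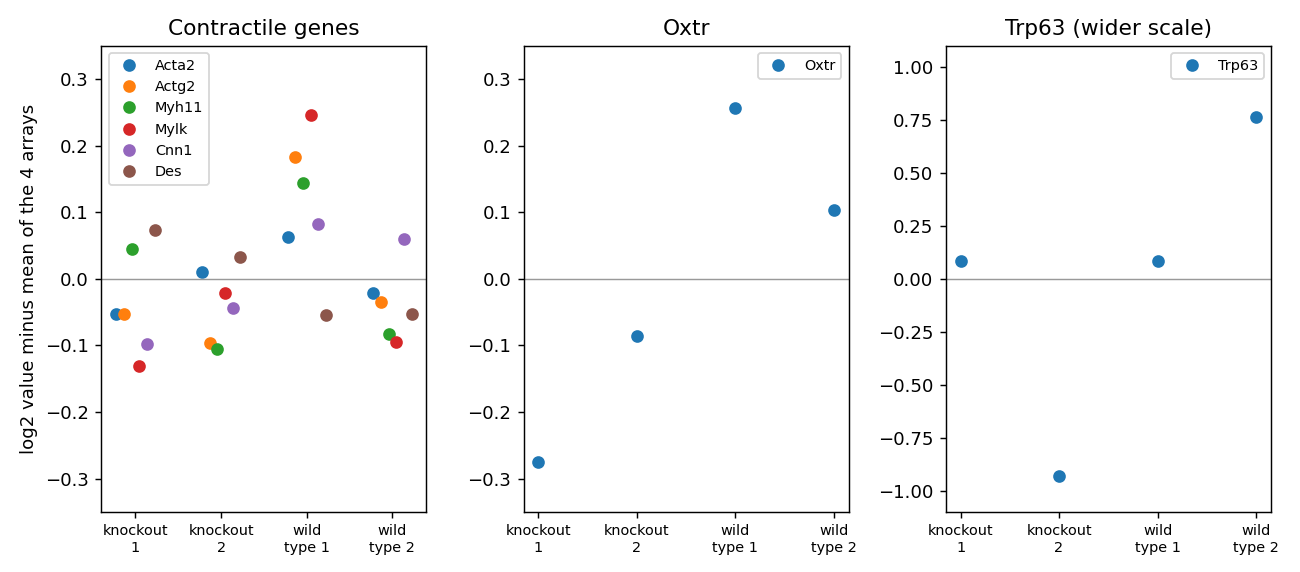
Log2 value minus the mean of the 4 arrays (y axis) for the brightest probe set of each measured member gene on each array (x axis; points of different genes are set side by side, and the Trp63 panel has a wider scale). In the contractile panel every gene but Des is highest in wild type 1; Oxtr is lowest in knockout 1, and Trp63 lowest in knockout 2 and highest in wild type 2.

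Wild type 1 was the high array for most contractile genes. For 4 of the 6 contractile genes by their brightest probe sets the arrays of 1 genotype differed from each other by more than the genotype means did, as for 74.8% of all genes by theirs. The same held for 12 of the 17 member probe sets and 75.7% of all probe sets, so the members lay near the background here. Wild type 1 was the highest array for 5 of the 6 contractile genes (all but Des) and for 6 of the 8 measured member genes, where it was the highest for 21.5% of the brightest probe sets of all genes. The median of the 11 contractile probe sets was -0.061, and it was 0.0010 without wild type 1, -0.15 without wild type 2, -0.096 without knockout 1 and -0.10 with the brightest probe set of each gene. The 95% intervals of the 6 brightest contractile probe sets reached at most from -0.47 to 0.27, which corresponds to 1.39-fold lower and 1.21-fold higher in knockouts.

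The partners of the contractile filaments lay on both sides of 0. Of 23 listed genes of thin filaments and the attached cytoskeleton 21 were measured, with 9 above and 12 below 0 by their brightest probe sets, a median of -0.0041 against -0.0022 over all 17097 genes, and 0 past the threshold, which 0.00585% of these probe sets passed. At an unadjusted p under 0.05 by limma 2 stood, where 7.36% of genes did. The myosin light chain Myl9 stood at -0.026 on the log2 scale (SE 0.084), and the filament-stabilising tropomyosins Tpm2 and Tpm1 had -0.073 (SE 0.086) and -0.045 (SE 0.074). Caldesmon, encoded by Cald1, had -0.0041 (SE 0.093). Wild type 1 was the highest array for 10 of these 21 genes, and the median of the list was 0.069 without it, -0.073 without wild type 2, 0.045 without knockout 1, -0.053 without knockout 2 and 0.049 with the mean of probe sets per gene.

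Most genes that set myosin phosphorylation lay slightly above 0. Of 14 listed genes 12 were measured, 11 above 0 and 1 below, with a median of 0.042 and 0 past the threshold by limma (1 at an unadjusted p under 0.05). The small GTPase RhoA, encoded by Rhoa, had a log2 fold change of 0.091 (SE 0.083), against 0.011 (SE 0.096) for its kinase Rock1. The myosin phosphatase subunits Ppp1r12a and Ppp1r12b had 0.011 (SE 0.066) and 0.19 (SE 0.070). Without wild type 2 the median of the list was 0.017 and without wild type 1 it was 0.085.

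The regulators of contractile genes lay on both sides of 0. Of 12 listed transcription regulators 10 were measured, 2 above and 8 below 0, with a median of -0.028 and 0 past the threshold by limma (1 at an unadjusted p under 0.05). The median was -0.066 without knockout 2, -0.052 without wild type 1 (6 below 0 in both cases), -0.048 without wild type 2 and -0.053 with the mean of probe sets per gene. Srf, the factor that binds the CArG box, had log2 values of 7.25 and 7.25 in knockouts 1 and 2 and 7.08 and 6.99 in wild types 1 and 2, a log2 fold change of 0.21 (SE 0.071, limma adjusted p = 0.727). Both knockouts were above both wild types for Srf, opposite to Cnn1 and Actg2. Its cofactor Myocd had 0.026 (SE 0.126), Gata6 of vascular smooth muscle -0.31 (SE 0.148) and Mef2c -0.016 (SE 0.094).

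Of 14 listed genes of oxytocin signalling, the hormone gene Oxt among them, 11 were measured, 9 above and 2 below 0, with a median of 0.078 and 0 past the threshold by limma (1 at an unadjusted p under 0.05). Leaving out knockout 1 gave a median of 0.12, and leaving out wild type 2 gave 0.046. The G-protein subunits Gnaq and Gna11, which couple the receptor to phospholipase C, had log2 fold changes of 0.061 (SE 0.084) and 0.078 (SE 0.084). The phospholipases Plcb1 and Plcb3 had -0.098 (SE 0.103) and 0.064 (SE 0.074). For Oxtr both knockouts lay below both wild types. Of these 11 genes 0 had that arrangement, and 5 had both knockouts above both wild types. Over all probe sets the shares were 18.6% and 17.8%.

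Basal epithelial genes and p63 targets lay on both sides of 0. Of 20 listed 17 were measured, 5 above and 12 below 0, with a median of -0.050 and 0 past the threshold by limma (2 at an unadjusted p under 0.05). The median was -0.12 without knockout 1, -0.018 without knockout 2, -0.096 without wild type 2, -0.076 with probe sets averaged per gene and -0.088 over the brighter probe sets. Krt14, the keratin of basal cells, had log2 values of 7.90 and 7.87 in knockouts 1 and 2 and 8.10 and 8.22 in wild types 1 and 2, a log2 fold change of -0.27 (SE 0.075, limma adjusted p = 0.721). As for Oxtr, both knockouts were below both wild types for Krt14. Of the 17 measured genes 6 had that arrangement and 1 the opposite, against 18.6% and 17.8% of all probe sets. Krt5, the partner of Krt14, had -0.19 (SE 0.214), and its highest arrays were knockout 1 and wild type 2, those rich in hair follicle genes. Perp of this list, named after its values were seen, was also highest on these arrays. It had 9.18 and 6.20 in knockouts 1 and 2 and 6.42 and 9.04 in wild types 1 and 2. The hemidesmosome integrins Itgb4 and Itga6 had -0.027 (SE 0.095) and -0.0079 (SE 0.080).

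**Figure D4:**
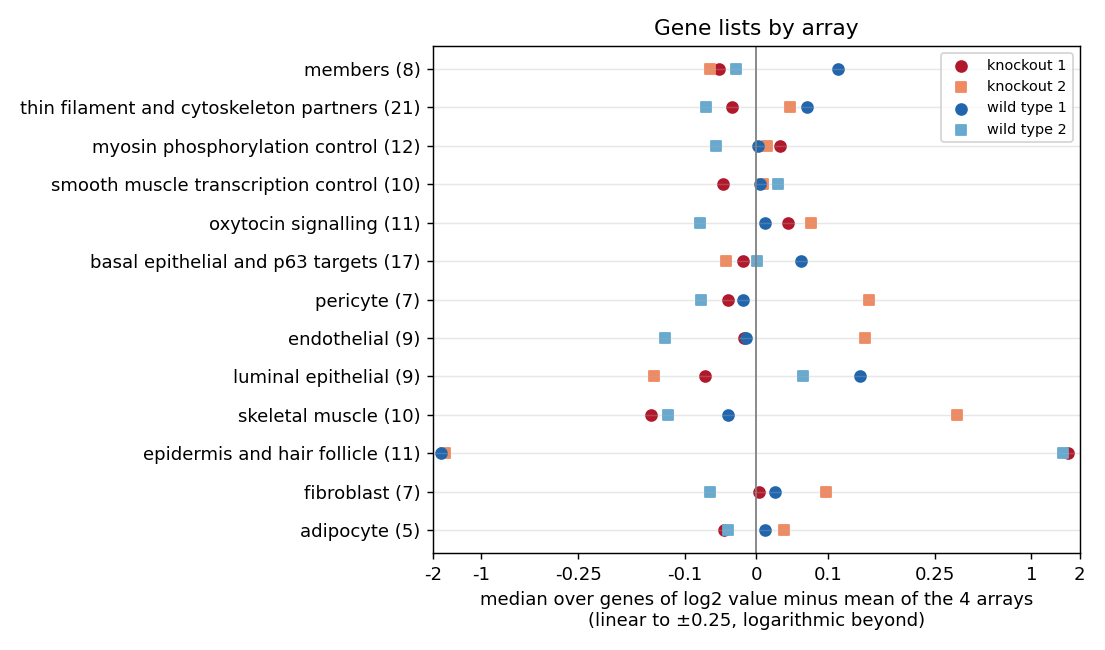
Median over the measured genes of a list (number in brackets, brightest probe set per gene) of log2 value minus the mean of the 4 arrays (x axis, linear to ±0.25 and logarithmic beyond); points are arrays. Wild type 1 stands at 0.11 for the members and 0.14 for luminal genes, knockout 2 at 0.16 for pericyte and 0.15 for endothelial genes, and the epidermis and hair follicle list splits knockout 1 and wild type 2 from the other arrays.

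Markers of the other cell types that hold contractile genes or border on them gave these values. Of 9 listed pericyte genes 7 were measured, 5 above and 2 below 0 (median 0.081; 0.19 without knockout 1, 0.041 without wild type 1 and 0.023 without knockout 2). Their summed linear level was 6147 and 6996 in knockouts 1 and 2 and 6141 and 5700 in wild types 1 and 2, and knockout 2 was the highest array for 6 of the 7. The brightest of them, Rgs5, weighs most in this sum, with a mean log2 value of 11.80 against 9.68 for the next, Mcam. Pdgfrb, the receptor that pericytes depend on, stood at 0.14 on the log2 scale (SE 0.098), Rgs5 at 0.21 (SE 0.096), Notch3 at 0.14 (SE 0.079) and the potassium channel Kcnj8 at 0.081 (SE 0.099). All 9 endothelial genes were measured, 8 above and 1 below 0 (median 0.15; 0.23 without knockout 1, 0.098 without wild type 2 and 0.068 without knockout 2), with Pecam1 at 0.15 (SE 0.137), Cdh5 at 0.11 (SE 0.103), Kdr at -0.0062 (SE 0.111) and Tek at 0.18 (SE 0.076). In both lists 0 genes passed by limma, and 0 and 1 had an unadjusted p under 0.05. Knockout 2 was the highest array for 8 of the 9 endothelial genes, and wild type 1 for 5 of the 6 contractile genes. The part of vascular cells in the contractile values was not tested.

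Luminal epithelial genes lay on the same side of 0 as Oxtr and Krt14. Of 10 listed 9 were measured, 1 above and 8 below 0, with a median of -0.20 and 0 past the threshold by limma (4 at an unadjusted p under 0.05). Their summed linear level was 3016 and 2887 in knockouts 1 and 2 and 3684 and 3361 in wild types 1 and 2. Epcam had a log2 fold change of -0.31 (SE 0.066), Krt8 -0.33 (SE 0.091), Krt18 -0.20 (SE 0.086) and Krt19 -0.10 (SE 0.106). Wild type 1 was the highest array for 6 of the 9. Both knockouts lay below both wild types for 6 of the 9 and above them for 0. Over all probe sets the shares were 18.6% and 17.8%. The part of epithelial content in the Oxtr and Cnn1 values was not tested. Fibroblast genes (7 of 7 measured) had a median of 0.040 and adipocyte genes (5 of 7 measured) 0.016 (-0.010 with quantile normalization), with 0 past the threshold by limma in either list and 0 and 1 at an unadjusted p under 0.05. The fibroblast median was 0.068 without knockout 1, 0.104 without wild type 1, 0.0061 without wild type 2 and 0.064 with the mean of probe sets per gene. The adipocyte median was -0.092 without knockout 2, -0.015 without wild type 2, 0.031 without wild type 1 (where limma called 1 gene, Lep) and 0.0033 with the mean of probe sets per gene, and so had no stable side of 0. In these lists Col1a1 had 0.18 (SE 0.081), Col1a2 -0.076 (SE 0.118), Col3a1 0.028 (SE 0.067) and Pdgfra -0.18 (SE 0.099), and Adipoq had -0.035 (SE 0.074), Fabp4 0.016 (SE 0.068), Lep 2.19 (SE 0.466) and Pparg -0.10 (SE 0.104). The probe sets of Col1a2 and Pdgfra were dimmer, with means of 8.03 and 5.06, than those of Col1a1 and Col3a1, at 12.19 and 13.32.

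The pattern of Acta2 over the arrays singled out no gene. The smallest root mean square differences from its centred values, over 4 arrays and 28896 probe sets of other genes, were 0.0054 for Krt77, 0.0056 for Hapln1 and 0.0061 for Fshb, all dim, with means of 4.65, 3.69 and 3.39. In all, 16.4% of these probe sets came within 0.05. The nearest member was a Mylk probe set at 0.053, and 18.9% of the probe sets compared were nearer than it.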

How the data were processed

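The authors summarised each array with RMA from affy and deposited 1 log2 value per probe set, as the submitters' processing notes record without versions. RMA equalises the arrays' distributions and compresses changes of dim genes. RNA labelling began from 200 ng, per the labels' protocols. Of 45141 probe sets 104 array controls were left out. Of the rest 28898 had 1 symbol, 551 had several and 15588 were not listed; by gene ID RefSeq (GRCm38.p6) matched 99.3% and changed 0 symbols. Genotypes were compared over all 45037 probe sets with lmFit and eBayes of limma 3.58.1 (R 4.3.3), two-sided, Benjamini-Hochberg adjusted, without covariates or filter. The fit had 2 residual and 3.43 prior degrees of freedom and a median SE of 0.081; the number of arrays limits precision. An exact permutation test of 2 against 2 cannot go below 0.333. The steps were tested on simulated data. Listed genes used their brightest probe set; the first 4 measured of each list were named, with any past the threshold. Members and lists were chosen with earlier results of these data known. Alternatives were other normalizations, a brightness filter, gene-level values, other variance models, blocks and arrays left out.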

Additional observations from a re-analysis of the deposited data

How the results depend on the processing

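No member probe set passed in any of the 13 alternative fits (limma adjusted p of 0.549 to 1.00). Of 196 member values under them 185 kept their direction. Many of the 185 were fixed in advance: other variance models, blocks and fits on the brighter or brightest probe sets leave each log2 fold change unchanged. The other 11, on 9 probe sets, arose with 1 array left out, where log2 fold changes ran from -0.084 to 0.00098 and -0.28 to 0.042 for the Acta2 probe sets, -0.17 to 0.052 and -0.12 to 0.083 for Myh11, -0.32 to 0.019, -0.17 to 0.0017 and -0.16 to 0.081 for Mylk, -0.027 to 0.080 for the dim Des and -0.059 to 0.14 for a dim Trp63 probe set. The members' median of -0.083 was -0.15 with the brightest probe set per gene and ran from -0.15 (without wild type 2) to -0.027 (without wild type 1) with 1 array left out. Over all probe sets 5 were called with quantile normalization, median centring, the brighter probe sets only, an intensity trend or robust variances, 1 with the brightest probe set per gene, 0 with the mean of probe sets per gene (1185 at an unadjusted p under 0.05 by limma), and from 0 to 5 with 1 array left out: 5 without wild type 1 and 0 without any other, with 2101 to 2786 at an unadjusted p under 0.05. A genotype with 1 array is then taken to vary like the other.

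The replicate number as a block called 0 probe sets by limma (3131 at an unadjusted p under 0.05) and changed no member's call. The differences within knockout and within wild type between replicates 1 and 2 correlated at -0.295 over probe sets, so the numbers do not show a pairing; crossing them, chosen after seeing the data, also called 0 (2558 at an unadjusted p under 0.05).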
